A study of Mus musculus with 8 samples.

Results

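The pluripotency factors are transcription factors and nuclear proteins that keep embryonic stem cells and early germ cells undifferentiated, and 10 of them were examined in neonatal mouse testis. The genes were Pou5f1, Sall4, Nanog, Sox2, Klf4, Zfp42, Utf1, Myc, Mycn and Tcfap2c, the last being the older symbol of Tfap2c. Their probes were found by the gene name written in the array files, which gave 15 probes for the 10 genes among 27670 gene symbols on the array. VRK1 is a kinase of mitotic cells, and the study asked how its loss affects the germ cells of the male mouse. The wild type and VRK1-deficient groups each held 4 biological replicates from males of postnatal day 8, with 1 array each, and total RNA was taken from testes. The labels do not say whether a replicate was 1 animal. The mutant allele was a gene trap with a β-geo reporter in intron 3 of Vrk1, bred onto C57BL/6, and homozygotes are hypomorphs that still make some full-length VRK1. All mutants therefore came from 1 trapped allele, and no rescue or second allele was measured on the arrays.

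In embryonic stem cells, POU5F1, SOX2 and NANOG bind regulatory DNA together and keep each other's genes active, and SALL4 and KLF4 act with them. Male germ cells carry part of this network into neonatal life. POU5F1 and SALL4 mark gonocytes and undifferentiated spermatogonia, whereas KLF4, MYC and MYCN are also made by somatic cells of many tissues. At postnatal day 8 the tubules hold proliferating spermatogonia among Sertoli cells, surrounded by peritubular, Leydig and vascular cells.

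The sequences of 6 probes are shown because the results turn on them. All come from the array files in the order given there, with positions on mouse build mm7. Whole probes of 60 bases are given for Pou5f1 and for 1 Sall4 probe, and 30 bases for the others. Capitals mark the 20 bases that both Zfp42 probes share.
Pou5f1, A_51_P202340, chr17:33612047-33612107, plus strand: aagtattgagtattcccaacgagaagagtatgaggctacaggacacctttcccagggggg
Sall4, A_51_P145260, chr2:168545326-168545385, minus strand: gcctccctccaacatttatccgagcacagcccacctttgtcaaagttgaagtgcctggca
Sall4, A_51_P349087, chr2:168541487-168541546, minus strand, bases 1 to 30: tgcgaccacccaagtattgccaggtcttaa
Tcfap2c, A_51_P418820, chr2:172351014-172351073, plus strand, bases 1 to 30: tttatgcgagtgcacacagggtattgaaac
Zfp42, A_51_P413376, chr8:42080746-42080805, minus strand, bases 1 to 30: TGTGCTATTGAAGGGGATGGggacttttgc
Zfp42, A_52_P629849, chr8:42080786-42080857, minus strand, bases 31 to 60: ccttactataTGTGCTATTGAAGGGGATGG
The 2 Sall4 probes lie 3779 bases apart and share no position. The 2 Zfp42 probes overlap on the genome. No genome of build mm7 was used here, so the exon or untranslated region under each probe was not determined.

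Values are log2 signals relative to the 75th percentile of the same array, so 0 is the level that 3 in 4 spots do not exceed. A log2 change is the VRK1-deficient mean minus the wild type mean. limma compared the genotypes over 26962 probes with Benjamini-Hochberg adjustment, and the word called is used for an adjusted p under 0.05. Between 63.6% and 69.5% of spots per array were well above background, and the number of arrays limits the precision. Vrk1 itself averaged 0.16 ± 0.38 in the wild type group and -3.85 ± 0.27 in the mutants (SD, n = 4 each), a log2 change of -4.004 (limma adjusted p = 0.000135). Whether that probe lies before or after the trapped intron was not determined. Wild type replicate 1 stood apart from its group. Across probes, its correlation was 0.970 to 0.986 with the other wild type arrays and 0.988 to 0.991 with the VRK1-deficient arrays. Results are therefore also given without it. It was picked from these same signals because it lay near the mutants, so results without it are not separate support for a change. Without it 7659 probes were called, against 986 with all arrays and 3 to 68 when any other single array was left out. On each of the 2 slides, wild type RNA lay at array positions 1 and 2 and VRK1-deficient RNA at positions 3 and 4, so position and genotype cannot be told apart.

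Of the 10 factors, 8 were above background on all 8 arrays and 2 were not. Pou5f1, Sall4, Utf1, Zfp42, Tcfap2c, Klf4, Myc and Mycn were well above background on every array by their brightest probe. Sox2, which encodes the partner of POU5F1 on DNA, was not well above background on any array. Its log2 signal lay between -8.22 and -7.38, and on 7 of 8 arrays the scanner software had replaced it with a surrogate value. Nanog, a homeobox gene of the same core, was well above background on 1 array, VRK1-deficient replicate 3, where its log2 signal was -4.06. On the other 7 arrays it lay between -8.53 and -7.10. The lowest spot well above background lay between -6.35 and -5.50 on these arrays, so neither gene gave a fold between genotypes. Neither Sox2 nor Nanog was tested, and an array signal near background does not show that a transcript is absent.

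Of the 8 tested factors, 1 was called, Sall4, with a lower signal in the mutants. The background was 3.66% of tested probes called in either direction and 1.98% called lower. Another 3 factors, Tcfap2c, Klf4 and Zfp42, had an unadjusted p under 0.05 and an adjusted p above the threshold. Of all tested probes, 28.8% had an unadjusted p under 0.05, and the counts at that p given for lists are to be read against this share. In all, 5 of 8 factors had a lower mean and 3 a higher mean in VRK1-deficient testes, with a median log2 change of -0.41 against 0.04 over all tested genes. For 4 of 8 factors no array of 1 genotype fell inside the range of the other, which held for 16.7% of all tested probes. Of these, Sall4, Tcfap2c and Klf4 were lower in the mutants. Myc was higher, and its nearest arrays of both genotypes rounded to -1.07. Without wild type replicate 1, 3 of 8 factors were called, Sall4, Tcfap2c and Zfp42, when 28.4% of all probes were called.

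**Figure D1:**
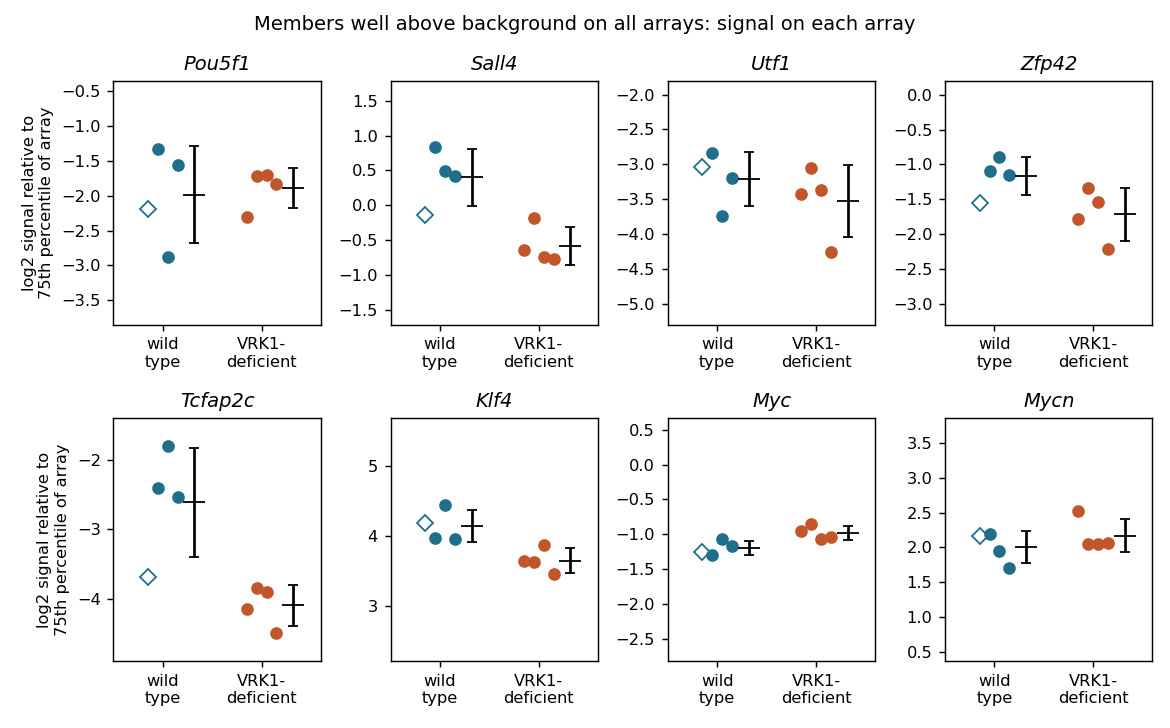
Log2 signal of the 8 factors well above background, relative to the 75th percentile of each array, with 1 point per array and the mean ± SD (n = 4) as a bar; the open diamond is wild type replicate 1. Every panel spans the same log2 range. The genotypes separate for Sall4, Tcfap2c and Klf4 and, barely, for Myc, whereas the Pou5f1 points of VRK1-deficient testes lie within the wild type range.

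Pou5f1 encodes OCT4, the POU-domain factor at the centre of the network. Its log2 signals on wild type arrays 1 to 4 were -2.19, -1.33, -2.88 and -1.56. Those on VRK1-deficient arrays 1 to 4 were -2.31, -1.72, -1.70 and -1.82. All 4 VRK1-deficient values lay inside the wild type range. The means were -1.99 ± 0.70 and -1.89 ± 0.29 (SD, n = 4 each), and their difference was 0.10 (standard error 0.32, limma adjusted p = 0.856). The 95% interval of the change reached from -0.62 to 0.82, so a moderate change in either direction was not detectable with these arrays. The direction was not settled. The change was -0.26 within slide 1 but 0.46 within slide 2, and it was -0.20 when wild type replicate 3, the lowest array, was left out. Whether the probe also binds transcripts of processed pseudogenes of Pou5f1 was not tested.

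Sall4 encodes a zinc finger factor that acts with POU5F1 and that undifferentiated spermatogonia need. Its brighter probe, A_51_P349087, had log2 signals of -0.14, 0.84, 0.50 and 0.42 on wild type arrays 1 to 4. The VRK1-deficient arrays 1 to 4 gave -0.64, -0.18, -0.74 and -0.78. Every VRK1-deficient value was below every wild type value, and wild type replicate 1 lay nearest to the mutants. The means were 0.40 ± 0.41 and -0.58 ± 0.27 (SD, n = 4 each), so 50.4% of the wild type signal was left. On the log2 scale Sall4 fell by 0.99, with a standard error of 0.22 (limma adjusted p = 0.0491). The change was -0.76 on slide 1 and -1.21 on slide 2. With slide as a block the adjusted p was 0.0539, so the call was lost, and quantile normalization (0.05005) and no filter on dim probes (0.0930) ended it as well. When wild type replicate 1 was left out, it was -1.17 (limma adjusted p = 0.00459). Leaving out any single array among the 7 others ended the call, with an adjusted p between 0.0776 and 0.149.

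The dimmer Sall4 probe, A_51_P145260, gave -1.99, -1.92, -2.44 and -1.93 on wild type arrays 1 to 4. On VRK1-deficient arrays 1 to 4 it gave -2.28, -2.17, -2.27 and -2.87. The genotypes overlapped because wild type replicate 3 was low. The difference was -0.33 (standard error 0.19, limma adjusted p = 0.276), with a 95% interval of -0.75 to 0.10. The log2 change of the brighter probe minus that of the dimmer probe was -0.66 (exact permutation test, two-sided, p = 0.0857, n = 4 per genotype). That comparison was made after the values were seen, and 0.0286 is the smallest p that 4 against 4 arrays allow. The 2 probes therefore had the same direction, and the size of the change was not settled between them.

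Tcfap2c encodes AP-2γ, a factor of germ cell specification that is shut off as spermatogonia differentiate. Wild type arrays 1 to 4 gave log2 signals of -3.68, -2.41, -1.80 and -2.54. VRK1-deficient arrays 1 to 4 gave -4.15, -3.84, -3.89 and -4.49. The genotypes did not overlap, and wild type replicate 1 lay just above the highest mutant. The means were -2.61 ± 0.78 and -4.09 ± 0.30 (SD, n = 4 each), with 35.8% of the wild type signal left. The difference of -1.48 (standard error 0.35, limma adjusted p = 0.0524) missed the threshold. It was -0.95 on slide 1 and -2.02 on slide 2. Leaving out wild type replicate 1 gave -1.84 (limma adjusted p = 0.00344). The probe was dim, and with another background correction, normexp, the change was -0.60 and smaller than the -0.93 of Sall4.

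Zfp42 encodes REX1, a zinc finger protein used as a marker of naive stem cells, and Utf1 a chromatin protein of stem cells and early spermatogonia. The brighter Zfp42 probe, A_51_P413376, gave -1.55, -1.09, -0.89 and -1.15 on wild type arrays 1 to 4. It gave -1.78, -1.33, -1.54 and -2.22 on VRK1-deficient arrays 1 to 4. The genotypes overlapped through wild type replicate 1 alone. The difference was -0.55 (standard error 0.21, limma adjusted p = 0.131), and leaving out wild type replicate 1 gave -0.68 (limma adjusted p = 0.0401). The other Zfp42 probe, A_52_P629849, shares 20 bases with it but was well above background on only 1 wild type and 3 VRK1-deficient arrays. Its log2 signals ran from -8.29 to -3.13 in wild type and from -7.64 to -3.88 in VRK1-deficient testes, and the log2 change of 1.74 had a standard error of 1.22 (limma adjusted p = 0.366). The Zfp42 probes thus had opposite signs, and the second measured the gene on too few arrays to set against the first.

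For Utf1, wild type arrays 1 to 4 gave log2 signals of -3.04, -2.84, -3.74 and -3.20. VRK1-deficient arrays 1 to 4 gave -3.42, -3.05, -3.38 and -4.27. The groups overlapped widely, and the log2 change of -0.32 had a 95% interval of -0.95 to 0.30 (limma adjusted p = 0.462). It was -0.076 when VRK1-deficient replicate 4, the lowest array, was left out. The lowest wild type array, replicate 3, was also the lowest wild type array for Pou5f1 and for the dimmer Sall4 probe. It was the highest wild type array for Tcfap2c and for the brighter Zfp42 probe.

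Klf4 encodes a Krüppel-like factor that reprograms somatic cells together with OCT4, SOX2 and MYC, and that Sertoli cells and postmeiotic germ cells are also known to express. Its log2 signals were 4.19, 3.97, 4.45 and 3.96 on wild type arrays 1 to 4. On VRK1-deficient arrays 1 to 4 they were 3.64, 3.63, 3.87 and 3.45. All mutant values were below all wild type values, and wild type replicate 1 was not among the low wild type arrays. The means were 4.14 ± 0.23 and 3.65 ± 0.17 (SD, n = 4 each), with 71.1% of the wild type signal left. The difference was -0.49 (standard error 0.15, limma adjusted p = 0.0779), with -0.44 on slide 1 and -0.54 on slide 2. Leaving out wild type replicate 1 gave -0.48 (limma adjusted p = 0.0571).

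Myc and Mycn encode the related MYC proteins, which dimerize with MAX and drive genes of growth and division. The brightest Myc probe, A_51_P102096, was printed on 10 spots per array, and the SD of its log2 signal among spots of 1 array was 0.048 to 0.090. Its mean log2 signals were -1.25, -1.30, -1.07 and -1.18 on wild type arrays 1 to 4. On VRK1-deficient arrays 1 to 4 they were -0.96, -0.86, -1.07 and -1.05. The genotypes did not overlap, but the nearest arrays of both rounded to -1.07. The difference was 0.22 (standard error 0.11, limma adjusted p = 0.214), with 0.37 on slide 1 and 0.07 on slide 2. The other 2 Myc probes had log2 changes of 0.15 and -0.0036. Mycn gave 2.17, 2.19, 1.95 and 1.70 on wild type arrays and 2.53, 2.05, 2.04 and 2.07 on VRK1-deficient arrays by its brighter probe. The ranges overlapped, and the log2 changes of its 2 probes were 0.17 and 0.18 (limma adjusted p = 0.511 and 0.525). The change of the brighter Mycn probe was 0.050 without VRK1-deficient replicate 1 and 0.068 without wild type replicate 4. The 95% interval of the brightest probe was -0.02 to 0.46 for Myc and -0.20 to 0.53 for Mycn.

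**Figure D2:**
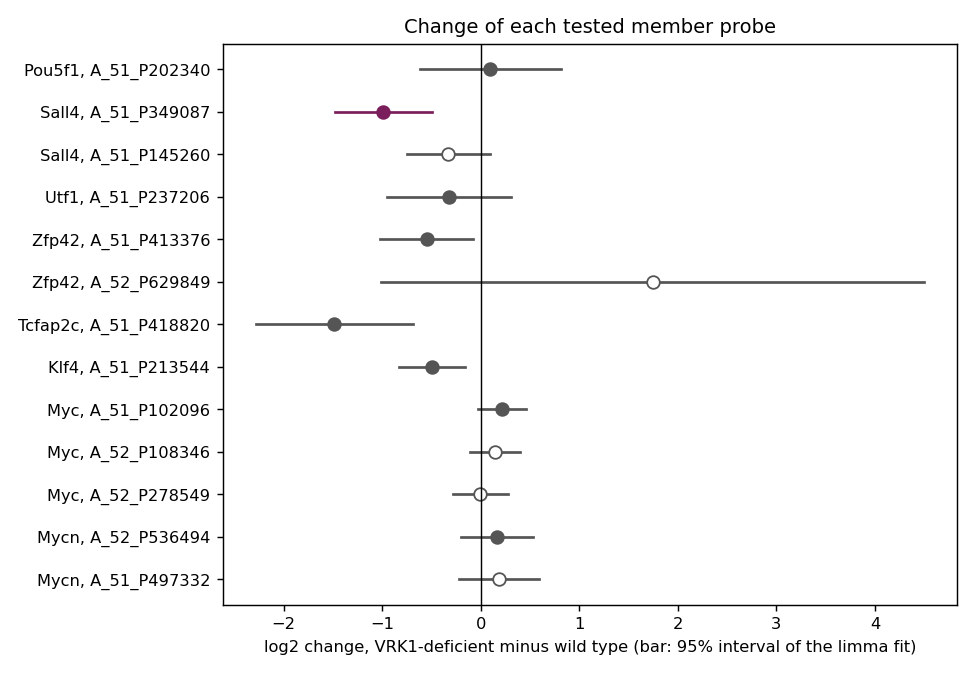
Log2 change (VRK1-deficient minus wild type, n = 4 each) of the 13 tested probes with the 95% interval of the limma fit as a bar; filled points are the brightest probe of each gene, and purple marks an adjusted p under 0.05. Only the brighter Sall4 probe passed the threshold, at -0.99, and the interval of the second Zfp42 probe spans from -1.01 to 4.50.

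Signals of germ cell markers were read beside these values, and a relation within a genotype was not tested. The mean log2 signal of 5 pan germ cell markers, Ddx4, Dazl, Tex14, Mael and Sycp3, was 0.59, 1.67, 2.24 and 1.97 on wild type arrays 1 to 4. It was 0.13, 0.86, 0.91 and 0.52 on VRK1-deficient arrays 1 to 4. Wild type replicate 1 lay inside the mutant range. All 5 markers had lower means in VRK1-deficient testes, with a median log2 change of -0.96, and 0 of 5 were called by limma although all 5 had an unadjusted p under 0.05. Sycp3, which encodes a protein of meiotic chromosomes, had the largest change of them, -1.40 (limma adjusted p = 0.132). The 5 markers therefore may not stand for all germ cells alike. Their summed linear signal, in units of the 75th percentile of the array, ranged from 13.0 to 34.5 in wild type and from 9.82 to 15.4 in VRK1-deficient testes. Of 7 tested markers of undifferentiated spermatogonia, 5 had higher and 2 lower means, with a median log2 change of 0.50. In this list Bcl6b rose (log2 change 0.61, limma adjusted p = 0.0498), a call that normexp ended (limma adjusted p = 0.0537). The 2 markers with lower means, Neurog3 (-0.93, limma adjusted p = 0.0856) and Pou3f1 (-0.76, limma adjusted p = 0.0704), did not overlap between genotypes. Of the 5 with higher means, 4 also did not overlap, which held for 16.7% of all tested probes. These were Bcl6b, Etv5 (0.66, limma adjusted p = 0.0892), Gfra1 (0.54, limma adjusted p = 0.0776) and Nanos2 (0.50, limma adjusted p = 0.0634). Several of these probes were dim, and with normexp the changes were -0.43 for Neurog3, 0.47 for Etv5, 0.42 for Gfra1 and 0.33 for Nanos2. Summed, this list ranged from 10.1 to 18.2 in wild type and from 7.68 to 10.1 in VRK1-deficient testes, and Pou3f1 alone made up 69.8% to 86.4% of each sum. Without Pou3f1 the sum was 1.597 to 2.48 in wild type and 2.30 to 2.47 in VRK1-deficient testes. All 4 markers of differentiating spermatogonia had lower means, with a median log2 change of -1.16. In this list Dmrtb1 fell by 1.80 on the log2 scale (limma adjusted p = 0.0492). Whole testis was measured, so fewer cells of a type and less RNA per cell cannot be told apart. The part of germ cell number in the factors' values was not tested.

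Somatic markers were read in the same way. Of 6 Sertoli markers, 5 had higher means and 0 were called by limma, with 4 at an unadjusted p under 0.05 and a median log2 change of 0.36. The medians were 0.28 for 6 Leydig, 0.35 for 4 endothelial and 0.09 for 4 macrophage markers. That of 4 peritubular markers was -0.07, and Cnn1 fell by 0.99 on the log2 scale (limma adjusted p = 0.0446). Every germ cell, Sertoli and Leydig marker with a matched probe passed the filter on dim probes. Hba-a1, a red blood cell gene, had a log2 change of -0.11 (limma adjusted p = 0.837). Without wild type replicate 1, the calls were 5 of 5 pan germ cell and 4 of 4 differentiating markers, all lower. They also included 6 of 7 undifferentiated markers (2 lower, 4 higher) and 5 of 6 Sertoli markers (1 lower, 4 higher). The other calls were 2 of 6 Leydig (both higher), 1 of 4 peritubular (lower), 1 of 4 endothelial (higher) and 0 of 4 macrophage markers. Of all probes, 28.4% were called there.

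To set the factors against germ cell signal, each log2 value was also expressed relative to the mean of the 5 pan germ cell markers on its array. This scale was chosen after the data were seen. It adds the same amount to the change of every gene, so that the median log2 change of all tested probes moved from 0.04 to 1.05, and a sign on it carries no information of its own. On it, the log2 change of the brighter Sall4 probe was 0.03 (limma adjusted p = 0.956), from means of -1.22 ± 0.51 for wild type and -1.19 ± 0.37 for mutant testes (SD, n = 4 each). The dimmer Sall4 probe had 0.69 (limma adjusted p = 0.179), so the 2 probes differed here as well. By the brightest probe, the log2 change of Zfp42 was 0.46 and that of Tcfap2c was -0.47 (limma adjusted p = 0.300 and 0.272). Relative to the markers, Pou5f1 was higher on all 4 VRK1-deficient arrays, between -2.61 and -2.34, than on all 4 wild type arrays, between -5.12 and -2.78. Its log2 change was 1.11 (limma adjusted p = 0.0606). Myc, with 1.23 (limma adjusted p = 0.0495), was the only one of the 8 factors past the threshold on this scale by its brightest probe. Both values lay near the shift of all probes. The shares of all probes called or not overlapping on this scale are not given here, and the shares given above do not apply to it. The call of Myc and the separation of Pou5f1 therefore have no background to be read against. The mean of the markers differed by -1.01 between genotypes, and each relative value carries the spread of that mean.

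**Figure D3:**
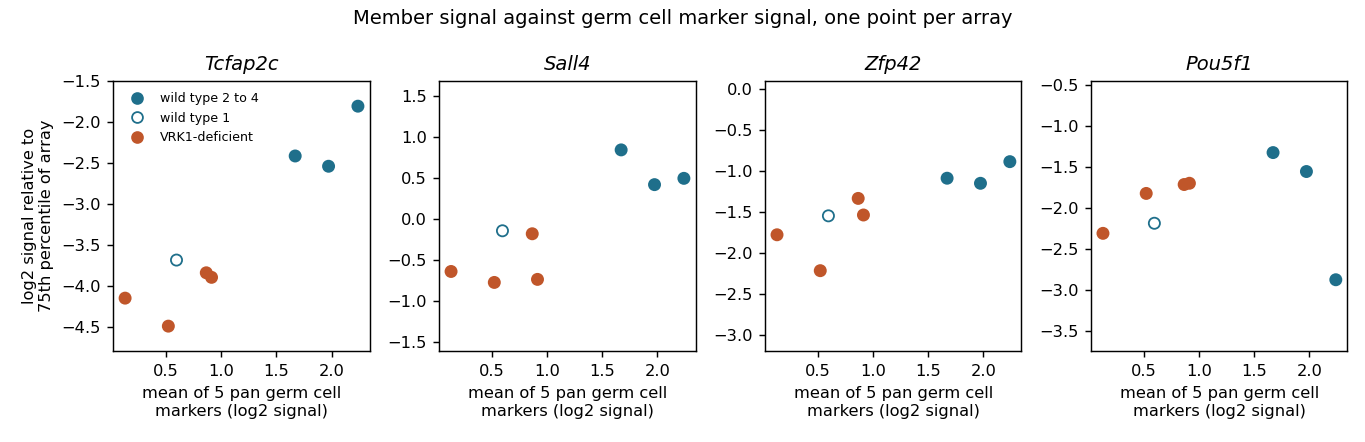
Log2 signal of 4 factors against the mean log2 signal of 5 pan germ cell markers, with 1 point per array; the open circle is wild type replicate 1. Each factor is plotted by its brightest probe. For these probes of Tcfap2c, Sall4 and Zfp42, the 3 wild type arrays with the highest marker signal also had the highest factor signal. That pattern includes the difference between genotypes. Among these 3 arrays, Sall4 was highest, at 0.84, where the marker signal was lowest, at 1.67. Pou5f1 was lowest, at -2.88, on the array with the highest marker signal. The dimmer Sall4 probe and Utf1, not plotted, were also lowest among wild type arrays there, at -2.44 and -3.74.

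Other genes of the network were read from lists. Of 19 further network factors, 16 were tested, and 2 were called, both lower. Lin28a and Lin28b, which encode RNA-binding proteins that block let-7 maturation, fell by 1.12 and 1.43 on the log2 scale (limma adjusted p = 0.0498 and 0.0492). The next in size was Tfcp2l1, a factor of naive stem cells, with a log2 change of -0.61 (limma adjusted p = 0.124). The median of the list was -0.03, with 9 genes lower and 7 higher. Esrrb was on the array but not tested, and no probe was matched to Prdm14 or Trim71.

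Among 16 targets and markers of pluripotent cells, 12 were tested, and 1 was called in each direction. Lefty2, a secreted inhibitor of Nodal, fell by 1.18 on the log2 scale (limma adjusted p = 0.0349), at a mean log2 signal of -4.58 in wild type testes. This probe was dim, and with normexp its log2 change was -0.026 (limma adjusted p = 0.910). Spp1, the secreted phosphoprotein osteopontin, rose, with a log2 change of 0.94 (limma adjusted p = 0.0497). Dppa3, a maternal and germ cell protein that protects DNA methylation, averaged -2.50 ± 0.94 on wild type and -4.84 ± 0.94 on mutant arrays (log2 signal, SD, n = 4 each). Its log2 change of -2.34 missed the threshold (limma adjusted p = 0.0505), although the genotypes did not overlap. Dppa3 was well above background on 7 of 8 arrays, and with normexp its log2 change was -0.86 (limma adjusted p = 0.0766). The list had a median of -0.22. Lefty2 and Spp1 belong to signalling and to many somatic tissues as well.

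Of 9 genes of germ cell specification, 8 were tested and 0 were called by limma, with 5 at an unadjusted p under 0.05. This list had the lowest median of the gene lists read here outside the cell type markers, -0.70, with 6 genes lower and 2 higher. The largest changes were those of Dppa3, of Tcfap2c itself, and of Dnd1, which encodes an RNA-binding protein of germ cells (log2 change -0.85, limma adjusted p = 0.0544). The list shares Dppa3 with the targets and Tcfap2c with the factors, so its median is not separate from theirs.

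The partners and targets of MYC were read next. All 11 genes of the MAX and MXD network were tested, 0 were called by limma with 1 at an unadjusted p under 0.05, and the median was 0.03. The largest changes were 0.43 for Mxd3, -0.30 for Mycl and -0.27 for Mlxip (limma adjusted p = 0.0888, 0.278 and 0.195). Of 12 MYC targets, 0 were called with 5 at an unadjusted p under 0.05, and the median was -0.04. For 4 of these 12 targets, 3 higher and 1 lower, the genotypes were fully separate, which held for 16.7% of all tested probes. Polr1b, a subunit of RNA polymerase I, had 0.65 (limma adjusted p = 0.432), and its genotypes overlapped. Its log2 signal was -2.10 on wild type replicate 3 and 0.24 to 0.57 on the other wild type arrays. Within slide 1 the Polr1b change was -0.057. Ccnd2, cyclin D2, also had 0.65 (limma adjusted p = 0.0658), and Ldha, lactate dehydrogenase A, had 0.51 (limma adjusted p = 0.0508), both without overlap. These signs of targets ran both ways, with 5 genes higher and 7 lower.

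Relatives of the factors within their gene families were read as well. Of 14 genes, 13 were tested and 0 were called by limma, with 6 at an unadjusted p under 0.05 and a median of -0.16. The POU gene Pou3f1 had a log2 change of -0.76 (limma adjusted p = 0.0704) and its genotypes did not overlap. The SOX gene Sox3 had -0.73 (limma adjusted p = 0.275) and the AP-2 gene Tfap2a -0.63 (limma adjusted p = 0.135). These are dim probes, and with normexp the changes were -0.40 for Sox3 and -0.044 for Tfap2a. The dim probes of Tfcp2l1 and Mycl, named above, had -0.26 and -0.078 with it. Of the genes called in these and the cell type lists, Lin28a, Lin28b, Lefty2, Spp1, Bcl6b, Dmrtb1 and Cnn1 each lost its call on leaving out any single array except wild type replicate 1, with adjusted p between 0.0599 and 0.153. Without that array, 4 of 16 network factors (3 lower, 1 higher) and 8 of 12 targets (5 lower, 3 higher) were called. So were 5 of 8 genes of germ cell specification (all lower) and 1 of 11 genes of the MYC network (higher). The MYC targets had 6 of 12 called (2 lower, 4 higher) and the relatives 4 of 13 (2 lower, 2 higher). The share of all probes called there was 28.4%.

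**Figure D4:**
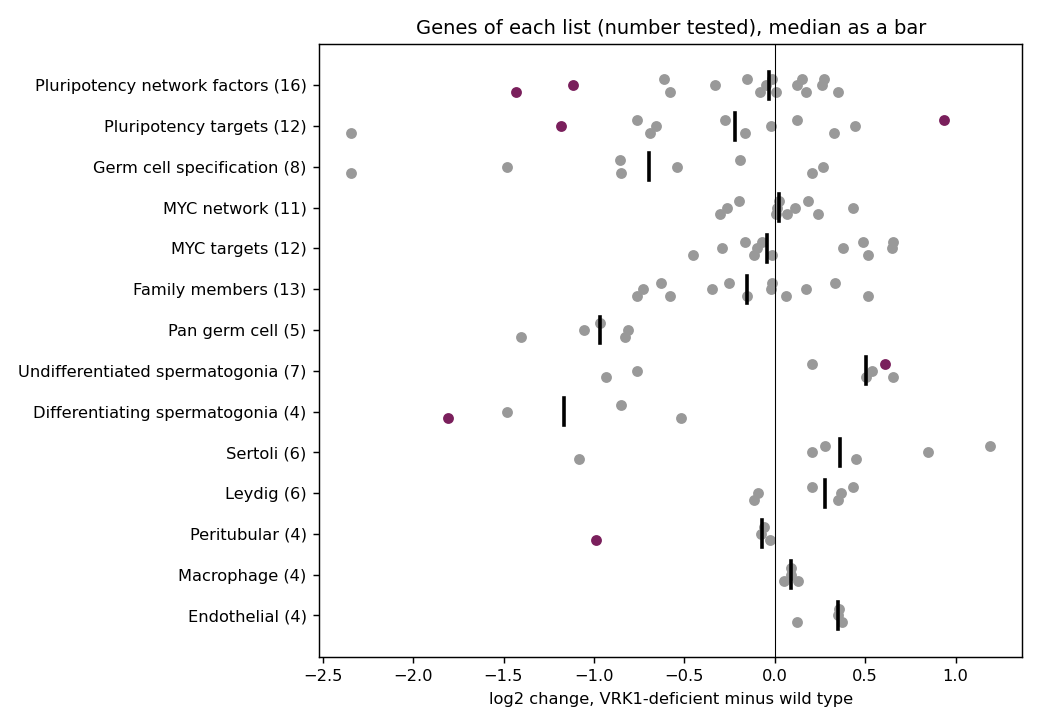
Log2 change (VRK1-deficient minus wild type, n = 4 each) of every tested gene in each list, with the number tested in brackets, the median as a black bar and genes with a limma adjusted p under 0.05 in purple. The pan germ cell and differentiating spermatogonia lists lie to the left of 0, with medians of -0.96 and -1.16, and the MYC lists lie around 0.

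The array pattern of Pou5f1 and of Sall4 was compared with that of each of 17946 other genes by their brightest probes, as a description across the 8 arrays. The genes most like Pou5f1 were Kctd10 (Pearson's r = 0.962), Rnf6 (0.955), Mfsd11 (0.952) and Nup205 (0.951). Their log2 changes between genotypes were -0.01, 0.06, 0.09 and 0.02. The genes most like the brighter Sall4 probe were Pacsin1 (Pearson's r = 0.992), Bcas3 (0.990), Nr2e1 (0.990) and Kif7 (0.990). Their log2 changes were -1.48, -0.37, -2.23 and -0.33. All 8 arrays entered each correlation, which therefore includes the difference between genotypes and the position of wild type replicate 1. For each of the 2 factors, these are the largest of 17946 values from only 8 arrays. How high the largest would be for unrelated genes was not tested.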

How the data were processed

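Total RNA from testes of postnatal day 8 was labelled with Cy3 and hybridized to 1-color Agilent Whole Genome Mouse arrays, 4 per genotype. Per the labels and file headers, the authors used Agilent Feature Extraction 9.5.3.1 for the spot signals. The deposited values are linear intensity values, background-subtracted by that software and not scaled between arrays. The deposited value table held the same values (0 unequal). Of 45018 spots per array, 43379 were other than controls and belonged to 41174 probes. No spot other than controls was saturated (0 on each array).

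From these, log2 intensities were computed and the log2 of the 75th percentile over spots other than controls was subtracted. Spots marked as outliers (58 to 134 per array) were left out of the averages, none of them a spot of the 10 factors, and the remaining spots were averaged by probe. The test took the 26962 probes, for 17950 symbols, that were well above background on 4 or more of the 8 arrays. A gene is represented by its brightest probe. Symbols came from the accession (22951 probes), symbol (6659) or synonym (3109) in a RefSeq gene table, and 8455 probes kept the name in the file. Genotypes were compared with limma 3.58.1 (lmFit, eBayes) in R 4.3.3. Python 3.11.15, numpy 2.4.6, pandas 2.3.3, scipy 1.17.1, matplotlib 3.10.9 and data.table, version 1.17.8, were also used. The fit was also run on simulated data, with noise independent between probes and arrays. That run does not bear on the deviation that probes of wild type replicate 1 share.

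The factors and lists were chosen with earlier results of these data known. Named genes are all members, Vrk1, each gene list's called genes and its 3 largest changes, and the 4 genes most like Pou5f1 and Sall4. Cell type lists are given by counts, medians and sums, with their called genes. Pou3f1, Neurog3, Etv5, Gfra1 and Nanos2 in the undifferentiated list were named, and the Sall4 probes compared by permutation, after their values were seen. The alternatives were quantile normalization, normexp (offset 50), the unscaled value table, other filters on dim probes, slide and replicate blocks, each slide, each array left out, the methods' t-test, robust variances, the average over a gene's probes, a ratio of arithmetic means and, added later, the scale relative to germ cell markers.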

Additional observations from a re-analysis of the deposited data

Results flagged for a closer look

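In groups of 4 arrays, 1 array stood far from the other 3 for 4 of 30 combinations of probe and genotype (Dixon's test at the 95% level). Chance marks about 1 in 20 such groups. For the brighter Mycn probe, VRK1-deficient replicate 1 had a log2 signal of 2.53, and the nearest other mutant array had 2.07. For the dimmer Sall4 probe, wild type replicate 3 had -2.44 against -1.99 for the nearest wild type array, and VRK1-deficient replicate 4 had -2.87 against -2.28 for the nearest mutant array. For the second Zfp42 probe, VRK1-deficient replicate 4 had -7.64, not well above background, and the nearest mutant array had -4.25.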

How the results depend on the processing

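The number of called probes, 986 in the comparison reported above, was 17 with no filter on dim probes, 641 with slide as a block, 3 within slide 1, 162 with the methods' t-test after adjustment and 1916 with an intensity trend and robust variances. It was 793 with quantile normalization, 916 with the unscaled value table, 1389 with the filter on all 8 arrays and 1059 within slide 2. The number ranged from 3 to 7659 with 1 array left out. Of the 8 tested factors, 1 was called, and this number was 0 with quantile normalization, no filter, slide as a block, slide 1 alone and the methods' t-test (4 factors at an unadjusted p under 0.05). It was 2 with the unscaled value table, the filter on all 8 arrays, slide 2 alone and robust variances, the second being Tcfap2c. With 1 array left out it ranged from 0 to 3.

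With the replicate number as a block (replicate block), 2280 probes and 3 factors were called, Sall4, Tcfap2c and Klf4. Deviations of arrays with the same number correlated at 0.53, 0.12, 0.21 and -0.19, so the numbers were not taken to pair the samples.

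Of 22 alternatives for each factor, the sign turned in the following cases, and the cause was not tested. Pou5f1 had -0.080 with the unscaled table, -0.26 within slide 1 and -0.20 without wild type replicate 3, and leaving out 1 array gave -0.20 to 0.32. Mycn had -0.011 with the unscaled table. The unscaled table moved the median of all probes to -0.14, and normexp moved it to 0.12. Zfp42 had 0.60 as the mean of both probes. The scale relative to the germ cell markers adds the same amount to every gene (the marker mean differed by -1.01), which fixes the signs on it, and the change was 0.52 for Klf4, 0.025 for Sall4, 0.69 for Utf1 and 0.46 for Zfp42. The sign of Tcfap2c and of Myc held in all 22. Sall4 kept its direction but missed the threshold in 13 of its 22 alternatives. Dim probes such as those of Tcfap2c and Utf1 depend most on background, with changes of -0.60 and -0.04 under normexp.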
